A study of Rattus norvegicus with 6 samples.

Results

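The core cardiac transcription factors are the DNA-binding proteins that set and hold the gene programme of heart muscle and of the cells around it. The 10 genes followed were Gata4, Gata6, Nkx2-5, Tbx5, Tbx20, Tbx18, Tbx3, Mef2a, Mef2c and Hand2, matched by gene symbol to the rows of the expression table. A row was found for 9 of the 10, 1 row each, among 15037 genes with a symbol, and Mef2c was not analysed here. RNA of whole hearts from male Sprague Dawley rats aged 10 weeks was measured on 6 single-colour Clariom S Rat microarrays. The labels give 2 arrays of normal hearts, 2 of hearts subjected to TAC, a silk ligature that narrows the transverse aorta, and 2 of TAC-R hearts, in which TAC had been undone. Groups were taken from the array titles, and whether each title matches the operation on the heart was not tested. The labels name no transgene or drug for any group, and no length of time under TAC or after release. The labels describe control rats operated on without ligation, but do not say whether the normal hearts were theirs. Nor do they tie the arrays to separate rats. A p-value therefore reflects only how far the arrays of a group lie apart, in the row itself and over all rows. That spread may be technical. One field of the labels describes RNA of cultured fibroblasts, whereas the titles and tissue fields name whole heart. Of 43 measured genes known as targets of these factors in heart muscle cells, 36 were above background on all 6 arrays.

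GATA4 and GATA6 are zinc-finger proteins that bind the DNA word GATA, NKX2-5 is a homeodomain protein, TBX5 and TBX20 are T-box proteins, and MEF2 proteins are MADS-box factors that bind A- and T-rich words. In heart muscle cells they bind near one another and switch on genes of the sarcomere, of ion handling and of the natriuretic peptides, and GATA4 and MEF2 proteins are also known for their part in the growth response to pressure load. TBX3 is a repressor that marks the pacemaker and conduction cells, TBX18 is known from the sinus node region, the epicardium and, in adult hearts, pericytes and vascular smooth muscle, and HAND2 is a basic helix-loop-helix protein of the developing right ventricle, the epicardium and other mesenchyme.

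None of the factors known from working heart muscle passed the test between the groups. Gata4, Gata6, Nkx2-5, Tbx5, Tbx20 and Mef2a were above background on all 6 arrays, and between any pair of groups the largest difference among them was 0.75 log2 units, a 1.69-fold higher signal of Tbx20 in TAC-R than in normal hearts. Their median absolute difference was 0.35 log2 units for TAC against normal, 0.32 for TAC-R against TAC and 0.50 for TAC-R against normal, beside 0.19, 0.20 and 0.20 over the 5243 rows above background on all arrays. None of the 6 passed limma's test across all 23188 rows in any of the 3 comparisons (adjusted p from 0.302 to 0.970), where 0.401 percent, 0.858 percent and 0.153 percent of all rows above background passed for TAC against normal, TAC-R against TAC and TAC-R against normal. The only member past the threshold was Tbx18, which was lower in TAC-R than in TAC hearts (adjusted p = 0.0157, limma), at signals that lay within background on all arrays. Background here means at or below the 95th percentile of the negative control rows of the same array, which was 8.09 to 8.55 log2 units. Tbx18, Tbx3 and Hand2 were below it on all 6 arrays, so their values give no measured level or fold.

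In TAC against normal hearts, 8 members with a row had a higher and 1 a lower mean. The arrays of the groups did not overlap for 6 members on the higher and 1 on the lower side, beside 21.9 percent and 21.3 percent of all rows. None was called, beside 0.254 percent of all rows, and 1 of 9 had an unadjusted p under 0.05, beside 10.3 percent. For TAC-R against TAC, 4 members were higher and 2 lower without overlap, beside 20.1 percent and 20.4 percent of all rows. Here 1 of 9 was called, on the lower side, beside 0.207 percent of rows called lower and 0.431 percent called in either direction, and 2 of 9 had an unadjusted p under 0.05, beside 11 percent. For TAC-R against normal, 6 were higher and 2 lower without overlap, beside 20.6 percent and 20.3 percent, and none was called, beside 0.0906 percent, although 5 of 9 had an unadjusted p under 0.05, beside 10.7 percent. The comparisons share arrays, so their counts are not separate evidence. Of the 6 detected members, 4 were higher and 0 lower without overlap in TAC than in normal hearts, beside 31 percent and 18.7 percent of the 5243 rows above background. For TAC-R against TAC, 2 were higher and 1 lower, beside 25.2 percent and 23.4 percent, and for TAC-R against normal 5 were higher and 1 lower, beside 29.4 percent and 16.8 percent. The median difference of the 6 detected members was 0.35 log2 units for TAC, 0.14 for TAC-R against TAC and 0.50 for TAC-R against normal, beside 0.059, 0.013 and 0.078 over those 5243 rows. Red cell transcripts moved between the same groups. Of 10 erythroid markers, 5 were called higher in TAC than in normal hearts (adjusted p 0.00341 to 0.0165, limma). They were Alas2, Hbb-b1, Hbb-bs, Slc4a1 and Hbb. The log2 of the summed signal of the 10 was 19.58 to 19.66 in normal, 20.78 to 20.84 in TAC and 20.33 to 20.43 in TAC-R hearts. The TAC sums are lower bounds, because Hba-a1 reached the ceiling of the scale, 19.9315, on both TAC arrays. Leaving out TAC replicate 2 lost all 5 calls (adjusted p 0.0503 to 0.134), leaving out normal replicate 1 lost those of Hbb-b1, Hbb-bs, Slc4a1 and Hbb (0.0508 to 0.186), and leaving out normal replicate 2 or TAC replicate 1 lost that of Hbb (0.129 and 0.192). Hbb-b1, Hbb-bs and Slc4a1 were called lower in TAC-R than in TAC hearts (adjusted p = 0.00416, 0.0151 and 0.0140, limma). Alas2 was called higher in TAC-R than in normal hearts (adjusted p = 0.0493, limma). The part of red cell transcripts in the members' differences was not tested. In bulk RNA, fewer cells of a type and less RNA per cell cannot be told apart.

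Gata4 and Gata6 had their lowest means in normal and their highest in TAC-R hearts. Gata4, the GATA factor best known from cardiac growth, had log2 signals of 9.90 and 9.67 in normal, 10.22 and 9.75 in TAC and 10.35 and 10.41 in TAC-R hearts. Both TAC-R arrays lay above the other 4, while normal and TAC overlapped. The difference of TAC-R from normal was 0.60 ± 0.24 log2 units (SE, 95% confidence interval 0.06 to 1.14), and its limma p of 0.0343 became 0.430 after Benjamini-Hochberg adjustment over all rows. TAC differed from normal by 0.20 ± 0.24 and TAC-R from TAC by 0.40 ± 0.24 (adjusted p = 0.812 and 0.610, limma). Gata6, a relative that can share GATA4's sites in heart muscle and is also made in vascular smooth muscle, had signals of 12.78 and 12.45 in normal, 12.92 and 12.63 in TAC and 13.11 and 12.91 in TAC-R hearts. TAC overlapped with both other groups, and only TAC-R and normal were apart. The largest difference, TAC-R from normal, was 0.40 ± 0.23 (interval -0.13 to 0.93, adjusted p = 0.576, limma), so neighbouring groups in this order did not differ beyond their spread.

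Nkx2-5, the homeobox gene of the earliest heart muscle progenitors that stays on in adult muscle, had the widest range of the 6 detected members. Its signals were 9.03 and 8.93 in normal, 9.49 and 9.74 in TAC and 10.06 and 9.27 in TAC-R hearts. Both normal arrays were the lowest, and the TAC-R arrays enclosed the TAC arrays. TAC differed from normal by 0.63 ± 0.29 (interval -0.02 to 1.28, adjusted p = 0.492) and TAC-R from normal by 0.68 ± 0.29 (interval 0.03 to 1.33, adjusted p = 0.445), with limma. The difference of TAC-R from TAC was 0.05 with an interval of -0.60 to 0.70, and its sign depended on 1 array: it was -0.07 without TAC replicate 1 and -0.35 without TAC-R replicate 1.

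The T-box activators kept the normal arrays lowest and did not share an order of the other groups. Tbx5, a partner of NKX2-5 and GATA4 at atrial and conduction genes, had signals of 10.51 and 10.30 in normal, 10.97 and 10.86 in TAC and 10.89 and 10.57 in TAC-R hearts. TAC lay above normal without overlap, and TAC-R overlapped with TAC. TAC differed from normal by 0.51 ± 0.22, with a limma p of 0.0494 that was 0.482 after adjustment. Tbx20, which is needed to hold the adult muscle programme, had signals of 16.67 and 16.62 in normal, 16.98 and 16.96 in TAC and 17.50 and 17.29 in TAC-R hearts. Its 3 groups were fully apart, in the order normal, TAC, TAC-R. TAC-R differed from normal by 0.75 ± 0.21 (interval 0.28 to 1.23), with a limma p of 0.0059 and an adjusted p of 0.302. The steps between were 0.33 ± 0.21 from normal to TAC and 0.43 ± 0.21 from TAC to TAC-R, and neither passed (adjusted p = 0.616 and 0.503, limma). With a prior spread that follows signal intensity, Tbx20 passed for TAC-R against normal (adjusted p = 0.00388, limma, within 0.00388 to 0.698 over its alternatives).

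Mef2a, the main MEF2 gene of adult heart muscle, was the 1 detected member whose TAC-R arrays were the lowest. Its signals were 16.14 and 16.15 in normal, 16.56 and 16.50 in TAC and 15.97 and 16.04 in TAC-R hearts. The 3 groups were apart, with TAC highest and replicates that lay close together. TAC differed from normal by 0.38 ± 0.20 (interval -0.08 to 0.85, adjusted p = 0.548) and TAC-R from TAC by -0.52 ± 0.20 (interval -0.98 to -0.06, adjusted p = 0.395), with limma. With the intensity-dependent prior the latter passed (adjusted p = 0.0212, limma, within 0.0212 to 0.675 over its alternatives). The TAC-R and normal means differed by -0.14 ± 0.20 (adjusted p = 0.852, limma). Mef2a is shown with its promoter because it was the only member whose promoter held a MEF2 word, the site of its own family. The sequence is RefSeq's for GRCr8, chr1:130392113-130392412, minus strand, from 250 bases before to 50 after the gene's start, and the capitals mark 2 overlapping matches on opposite strands, CTAAAAATA and CTATTTTTA.

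Mef2a: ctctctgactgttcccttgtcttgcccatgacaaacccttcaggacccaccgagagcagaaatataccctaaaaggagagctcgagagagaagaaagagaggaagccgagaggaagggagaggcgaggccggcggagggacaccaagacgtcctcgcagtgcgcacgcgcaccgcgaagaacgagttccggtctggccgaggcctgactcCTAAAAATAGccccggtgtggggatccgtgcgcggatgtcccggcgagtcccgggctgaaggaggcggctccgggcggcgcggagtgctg

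The matches begin 40 and 39 bases before the start. These words, on either strand, were in 0.887 percent of 33469 rat promoters of this length. A match is a description of letters and not of a bound site.

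**Figure D1:**
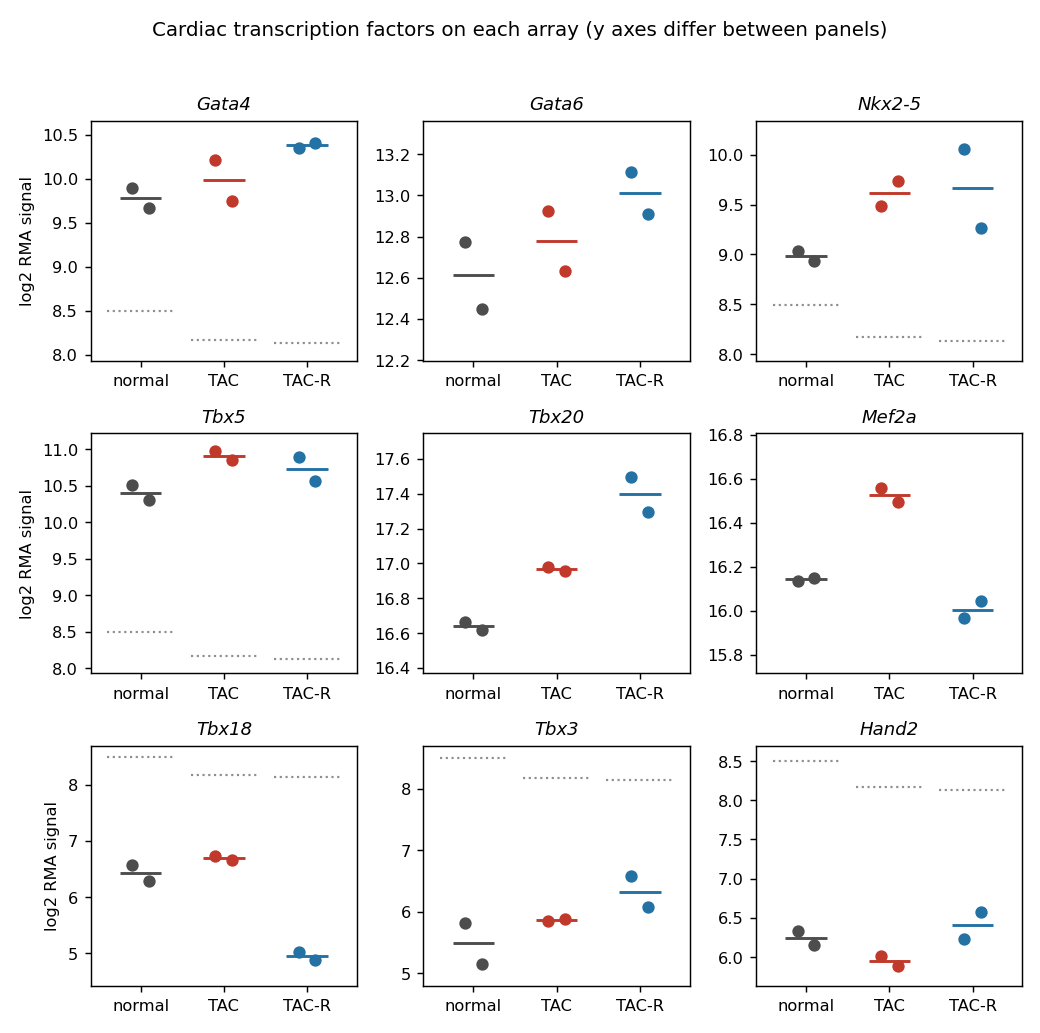
Log2 RMA signal (y axis, scale differing between panels) of the 9 measured factors in normal, TAC and TAC-R hearts (x axis). Points are arrays, bars are the mean of 2 arrays, and dotted lines show the mean of each group's 95th percentile of negative controls where it falls within the panel. Tbx20 steps from 16.64 to 16.97 to 17.40, Mef2a peaks in TAC, and Tbx18, Tbx3 and Hand2 lie below the dotted lines.

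**Figure D2:**
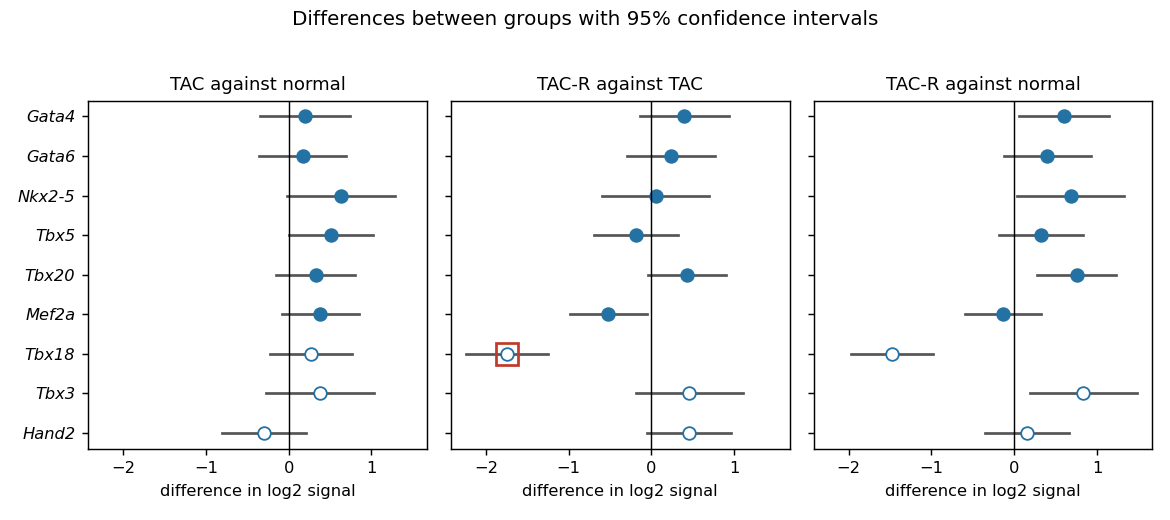
Difference in log2 signal (x axis) between groups for each measured factor (y axis), 1 panel per comparison, with the 95% confidence interval of limma's fit as a bar. Filled points are factors above background on all arrays, open points are those below it on all arrays, and the square marks Tbx18 in TAC-R against TAC, the only call.

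The precision of 2 arrays per group left room for moderate changes. Over the 6 detected members, the intervals reached up to 2.43-fold for TAC against normal, 1.98-fold for TAC-R against TAC and 2.51-fold for TAC-R against normal, so a p that misses the threshold does not show that a factor was unchanged. An exact two-sided permutation test of 2 against 2 arrays cannot go below p = 0.33.

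The 3 members known from pacemaker, mural and mesenchymal cells were not above background in whole heart RNA. Tbx18 had signals of 6.57 and 6.28 in normal, 6.73 and 6.66 in TAC and 5.02 and 4.88 in TAC-R hearts. Both TAC-R arrays lay below the other 4, and all 6 were above the median of the negative controls of their array (4.39 to 4.63). TAC-R differed from TAC by -1.75 ± 0.22 log2 units (interval -2.24 to -1.25, adjusted p = 0.0157, limma), a difference whose size is not measured because both sides lay within background. It lost the call without any 1 of the 4 arrays compared: adjusted p was 0.169 and 0.146 without TAC replicate 1 and 2, and 0.0849 and 0.154 without TAC-R replicate 1 and 2 (limma, 0.00438 to 0.169 over its alternatives). TAC-R against normal gave -1.48 ± 0.22 and did not pass (adjusted p = 0.0756, limma, 0.0243 to 0.436 over its alternatives), and TAC against normal gave 0.27 ± 0.22 (adjusted p = 0.703). Tbx3 had signals of 5.82 and 5.15 in normal, 5.85 and 5.88 in TAC and 6.58 and 6.07 in TAC-R hearts. TAC-R was the highest group, without overlap, and its difference from normal of 0.84 ± 0.28 did not pass (adjusted p = 0.370, limma). Hand2 had signals of 6.34 and 6.16 in normal, 6.02 and 5.88 in TAC and 6.23 and 6.58 in TAC-R hearts. TAC was the lowest group, normal and TAC-R overlapped, and the largest difference was 0.46 ± 0.22 for TAC-R against TAC (adjusted p = 0.508, limma).

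Markers of cells in which Tbx18 is known were also mostly lower in TAC-R than in TAC hearts, as were those of other cell types. All 13 pericyte and smooth muscle markers measured were lower in TAC-R without overlap, with a median difference of -0.80 log2 units, beside a lower, non-overlapping signal in 20.4 percent of all rows. None of the 13 passed the test in this comparison. The 3 largest differences among those above background were in Mcam (-1.32, adjusted p = 0.254), a surface glycoprotein of pericytes and endothelium, in the platelet-derived growth factor receptor gene Pdgfrb (-1.16, adjusted p = 0.246) and in smooth muscle actin, Acta2 (-1.01, adjusted p = 0.262, all limma). The log2 of the summed signal of the 13 was 15.85 to 15.86 in normal, 15.90 to 16.19 in TAC and 15.41 to 15.50 in TAC-R hearts. In TAC against normal hearts 1 of the 13, Cnn1, was called higher (adjusted p = 0.0319, limma), at signals within background on all arrays. Of 14 fibroblast markers, 13 were lower in TAC-R than in TAC without overlap and 2 were called, the collagen genes Col3a1 (-1.72, adjusted p = 0.0269) and Col1a2 (-1.66, adjusted p = 0.0469, limma), with a list median of -0.83. Both collagen calls were lost without any 1 array, where the differences were -1.95 to -1.50 and -1.97 to -1.34. Each was kept in 8 of 17 alternatives. The summed fibroblast signal was 17.17 to 17.49 in normal, 17.62 to 17.69 in TAC and 16.60 to 17.03 in TAC-R hearts. Of 12 epicardial and mesothelial markers, 6 were lower without overlap, none was called, and 11 were within background on all arrays. Wt1 and Tcf21 were among these 11, and Tcf21 is also counted among the fibroblast markers. The summed signal of the 12 was 8.88 to 9.09 in normal, 9.85 to 10.43 in TAC and 9.45 to 9.54 in TAC-R hearts. It followed 1 gene, Gpm6a, the only one of them above background on any array, with 7.64 and 8.10 in normal, 10.00 and 9.18 in TAC and 8.91 and 8.80 in TAC-R hearts (chosen after its values were seen). Of 14 endothelial and endocardial markers, 11 were lower in TAC-R than in TAC, 9 without overlap, with a median of -0.46. Of 13 macrophage and monocyte markers, 11 were lower, 9 without overlap, with a median of -0.28, and no marker of either list was called. Many of these rows were dim. Within background on all arrays were 9 macrophage, 5 endothelial, 3 pericyte and smooth muscle and 2 fibroblast markers. Above it on all arrays were 2, 7, 6 and 9, with medians of -0.67, -0.55, -0.90 and -0.78 in TAC-R against TAC. The part of these cells in the Tbx18 result was not tested.

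**Figure D3:**
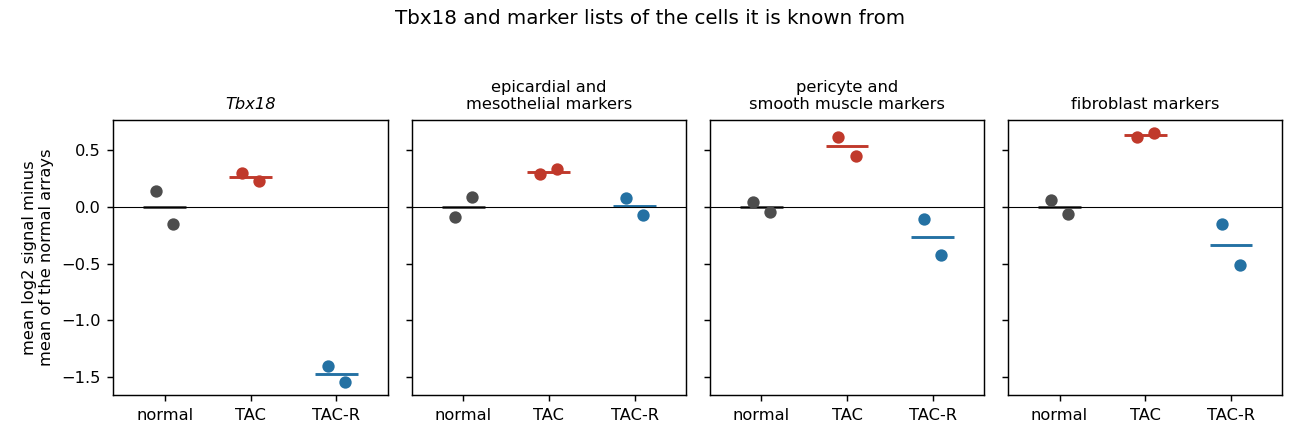
Log2 signal of Tbx18 and mean log2 signal of 3 marker lists, each minus its mean in normal hearts (y axis), in normal, TAC and TAC-R hearts (x axis). Points are arrays and bars the mean of 2 arrays. In TAC-R hearts Tbx18 and all 3 lists lie below their TAC arrays, and the epicardial list lies around the normal arrays.

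Related factors and partners showed no calls. Of 13 measured relatives of the members (other GATA, NKX2, T-box, MEF2 and HAND genes), 0 passed in any comparison, and 11 were within background on all arrays. Gata5, a GATA gene of the endocardium and early heart, had signals of 10.79 and 10.81 in normal, 11.39 and 11.36 in TAC and 11.20 and 10.95 in TAC-R hearts, with TAC 0.57 ± 0.21 from normal (adjusted p = 0.413, limma). Its groups were apart with TAC highest, the order seen for Tbx5. Of 25 partners and cofactors, 0 passed in any comparison. Srf, the serum response factor that binds with GATA4 and NKX2-5 at muscle promoters, differed by 0.94 ± 0.25 in TAC and 0.90 ± 0.25 in TAC-R against normal (adjusted p = 0.270 and 0.300, limma). Hopx, a homeodomain protein without DNA binding that restrains SRF, differed by -0.84 ± 0.29 in TAC against normal and 1.31 ± 0.29 in TAC-R against TAC (adjusted p = 0.398 and 0.137). The muscle cofactors Ankrd1 and Csrp3 came closest, at 1.23 ± 0.21 and 1.15 ± 0.21 in TAC-R against TAC (adjusted p = 0.0515 and 0.0677, limma). Of 26 other cardiac transcription factors, 0 passed in any comparison, and the largest difference above background was in the ventricular repressor gene Irx4, at 0.92 ± 0.23 in TAC against normal (adjusted p = 0.255, limma). The medians of these 3 lists lay between -0.24 and 0.22 log2 units in all comparisons.

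Several target genes differed by more between the groups than any of the 6 detected factors. Of 43 measured targets, 2 fell in TAC against normal, 6 rose in TAC-R against TAC and 1 rose in TAC-R against normal, while the other 41, 37 and 42 did not pass. Over all 15037 genes, 33 rose and 11 fell in TAC, 40 rose and 37 fell in TAC-R against TAC, and 11 rose and 6 fell in TAC-R against normal. In TAC against normal, 8 targets were higher and 29 lower, 3 and 21 of them without overlap, beside 21.9 percent and 21.3 percent of all rows. In TAC-R against TAC 27 were higher and 10 lower, 20 and 5 without overlap, beside 20.1 percent and 20.4 percent. Over the 5243 rows above background on all arrays, these shares were 31 and 18.7 percent, and 25.2 and 23.4 percent. The list medians were -0.10, 0.09 and 0.00, but 5 targets lay at the ceiling of the scale on all 6 arrays and could show no difference. Without these the medians of the other 38 were -0.20, 0.15 and 0.032. These 38 still hold Tnni3, at 19.8793 on all 6 arrays, and Tnnt2, at 19.8705 to 19.8804, both close to the ceiling. Nppb, the B-type natriuretic peptide gene and a GATA4 target, had signals of 16.05 and 15.72 in normal, 13.57 and 13.88 in TAC and 16.91 and 17.23 in TAC-R hearts. Its groups were far apart, with TAC lowest and TAC-R highest by the array titles, whose match to the operation was not tested. Gata4 and Gata6 overlapped between TAC and normal, and their part in the Nppb differences was not tested. Nppb fell by 2.16 ± 0.24 in TAC and rose by 3.35 ± 0.24 from TAC to TAC-R (adjusted p = 0.0118 and 0.00204, limma). The first call was lost without any 1 normal or TAC array (adjusted p 0.0735 to 0.145), and the second was kept under all 17 alternatives. Nppa, its atrial counterpart, had signals of 9.97 and 10.32 in normal, 8.60 and 8.92 in TAC and 13.69 and 11.26 in TAC-R hearts. It had the order of Nppb with a wide gap between the TAC-R arrays, and its difference of 3.71 ± 0.62 in TAC-R against TAC did not pass (adjusted p = 0.0527, limma).

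The promoters of this pair are printed because they are neighbours, with starts 12.2 kb apart on chromosome 5, and both hold GATA words in capitals. The GATA words searched, on either strand, were AGATAA and its variant AGATAG, and TGATAA with its variant TGATAG. Both are RefSeq's for GRCr8 on the plus strand, chr5:163699758-163700057 for Nppb and chr5:163711934-163712233 for Nppa.

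Nppb: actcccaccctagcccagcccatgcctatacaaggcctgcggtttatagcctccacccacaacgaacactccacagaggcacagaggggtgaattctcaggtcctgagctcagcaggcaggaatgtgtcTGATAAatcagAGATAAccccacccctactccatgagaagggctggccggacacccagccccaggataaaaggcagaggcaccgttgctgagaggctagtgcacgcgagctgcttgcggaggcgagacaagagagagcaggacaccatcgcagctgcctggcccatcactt

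Nppa: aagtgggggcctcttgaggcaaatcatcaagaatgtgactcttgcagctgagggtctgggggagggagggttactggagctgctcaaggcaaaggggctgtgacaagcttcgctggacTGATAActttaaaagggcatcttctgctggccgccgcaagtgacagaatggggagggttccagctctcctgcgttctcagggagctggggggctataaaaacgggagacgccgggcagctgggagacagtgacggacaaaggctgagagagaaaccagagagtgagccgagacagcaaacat

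In Nppb the words begin 121 and 110 bases before the start, and in Nppa 132 bases before. Such a word was in 14 of 38 target promoters in the table (36.8 percent) and in 30.3 percent of all promoters. The MEF2 words were in 3 of 38 (7.89 percent), those of Casq2, Xirp1 and Xirp2, and the T-box word AGGTGT in 4 of 38 (10.5 percent), beside 13.6 percent of all promoters. The NKX2-5 words TCAAGTG and TTAAGTG were in 1 of 38 (2.63 percent), beside 5.3 percent. Of the members, 7 had a promoter in the table, and a GATA word was in those of Tbx5 and Hand2, an AGGTGT word in that of Gata6 and an NKX2-5 word in none.

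Among the contractile targets, Myl7, the regulatory myosin light chain of atrial muscle, had signals of 8.40 and 8.43 in normal, 7.48 and 7.51 in TAC and 14.30 and 12.54 in TAC-R hearts. Only the TAC-R arrays were above background. Myl7 was at least 38.0-fold higher in TAC-R than in TAC and at least 30.3-fold higher than in normal hearts, taking the background limit as the level of the dim group (adjusted p = 0.00315 and 0.0105, limma). The 2 TAC-R arrays lay far apart: without TAC-R replicate 1 these bounds were 20.6-fold and 16.4-fold, and without TAC-R replicate 2 they were 70.2-fold and 56.0-fold. The first call was lost without TAC replicate 2 (adjusted p = 0.0501) and the second without normal replicate 1 or 2 (0.150 and 0.218). Myl4, the other atrial light chain, had signals of 8.72 and 5.91 in TAC-R hearts and 5.37 or less on the other arrays, and it did not pass (adjusted p = 0.126 against TAC). The mean log2 signal of 15 atrial markers was 8.70 to 9.35 in TAC-R, 8.12 to 8.13 in TAC and 8.15 to 8.24 in normal hearts. This mean rested on few genes: for TAC-R against TAC the differences were 5.93 for Myl7, 3.71 for Nppa, 3.39 for Myl4 and 1.40 for Sln, an atrial calcium pump inhibitor within background on all arrays, while the list median was 0.10 and 5 of the 15 were lower. How much atrial tissue each heart sample held was not tested. The slow myosin heavy chain gene Myh7 fell by at least 2.10 ± 0.20 in TAC and rose by at least 2.10 ± 0.20 in TAC-R against TAC (adjusted p = 0.00627 and 0.00663, limma), bounds because its bright arrays reach the ceiling of the scale. Skeletal actin, Acta1, rose by at least 1.76 ± 0.22, and the titin-cap gene Tcap rose by 1.62 ± 0.24 in TAC-R against TAC (adjusted p = 0.0157 and 0.0360, limma). Without 1 array of the compared groups, the Myh7 calls and those of Acta1 and Tcap were lost. Over 17 alternatives, each Myh7 call was kept in 13, that of Acta1 in 10 and that of Tcap in 9. Cacna1g, a T-type calcium channel gene of pacemaker cells, was called higher in TAC-R than in TAC (adjusted p = 0.0451, limma). Its signals lay within background, so the size is not measured. The call was lost without any 1 of the 6 arrays and with the replicate block (0.0953). It was also lost in a fit of TAC and TAC-R alone (0.113) and where control rows stayed in the test (0.0807). Of 14 conduction system markers, 6 were higher and 8 lower in TAC-R than in TAC, with a median of -0.013. Hcn4, a conduction marker above background on all arrays, differed by -0.02 ± 0.31 from TAC and -1.37 ± 0.31 from normal in TAC-R (adjusted p = 0.989 and 0.223, limma). Gja5, the connexin of atria and the conduction system and a target of TBX5 and TBX3, stayed between 10.54 and 10.83 on all 6 arrays, and its groups overlapped.

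**Figure D4:**
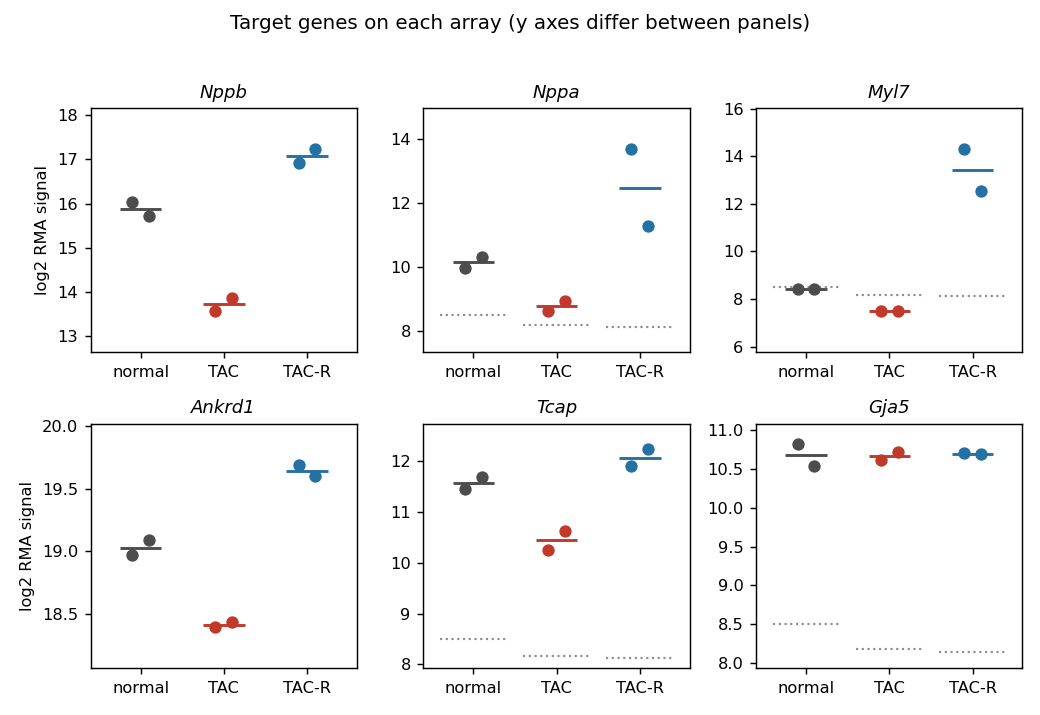
Log2 RMA signal (y axis, scale differing between panels) of 6 target genes in normal, TAC and TAC-R hearts (x axis). Points are arrays and bars the mean of 2 arrays. Dotted lines show the mean of each group's 95th percentile of negative controls where it falls within the panel. Nppb, Nppa, Myl7, Ankrd1 and Tcap are lowest in TAC and highest in TAC-R, and Gja5 is flat.

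Over the 6 arrays, the genes most like the 2 detected members of widest range were named by Pearson's r, among 2332 named rows above background with an SD over 0.2. For Nkx2-5 they were Borcs7, a subunit of a lysosome-positioning complex (r = 0.980), the nudix hydrolase gene Nudt19 (0.976) and Ppara, the nuclear receptor of fatty acid use (0.973). For Tbx20 they were the adhesion molecule gene Ncam1 (r = 0.995), Myadml2 (0.986) and the adaptor gene Appl2 (0.983). With 6 arrays such values are common: 26 and 71 rows exceeded 0.9, and the arrays share group differences and normalization, so these are descriptions.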

How the data were processed

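The deposited values were log2 signals, 1 per transcript cluster and array, which the authors made, per the labels, with Expression Console's core-exon RMA (robust multi-array average). The genome build and software versions were not given in the sources used here. RMA makes the arrays' distributions alike, so a shift of all transcripts together cannot be seen. Values end at a ceiling of 19.9315, where 17 rows lay on all arrays. Of 24834 rows, 1646 control rows were left out, and 15049 of the 23188 others had 1 gene symbol in GEO's platform table and 8139 none.

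No further scaling was applied. All 6 arrays were fitted in limma 3.58.1 (R 4.3.3) with 1 mean per group, empirical Bayes moderation (3 residual and 5.71 prior degrees of freedom) and Benjamini-Hochberg adjustment over all 23188 rows, with calls at adjusted p under 0.05. Standard errors and intervals are the model's. The script was tested on simulated data. The number of arrays limits the precision.

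Every member was described. The called genes of every list were named, and for some lists up to 3 genes above background with the largest difference. Certain targets (Nppa, Nppb, Myh7, Myl7, Ankrd1, Gja5) were always named. Myh6, also chosen, was not analysed here. For a symbol with several rows the row with the highest mean was used. Myl4, Sln, Gpm6a, Mef2a's promoter and the natriuretic peptide promoters were chosen after their values or matches were seen. The members and lists were chosen with earlier results of these data known. Promoters came from RefSeq (GRCr8), which held 7 of 10 members. Alternatives were intensity trend, robust moderation, filters on dim rows, ceiling rows left out, control rows kept, median centring, repeated quantile normalization, fits of only 2 groups, a replicate block, the mean over rows of a symbol, and leaving out each array. The same alternatives for called list genes, the Myl7 bounds without 1 TAC-R array and the target medians without ceiling rows were added after seeing the data.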

Additional observations from a re-analysis of the deposited data

How the results depend on the processing

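No member was called in TAC against normal hearts under any alternative. For TAC-R against TAC, 1 member was called, 2 with the intensity trend, and 0 with only rows above the 95th percentile of the negative controls, where Tbx18 is left out; leaving out 1 array gave 0 to 1. For TAC-R against normal, 0 were called, 2 with the trend and 1, Tbx18, with only rows above the median, with ceiling rows left out or with median centring. Differences changed sign without TAC replicate 1 for Gata4 in TAC against normal and Nkx2-5 in TAC-R against TAC, without TAC-R replicate 1 for Nkx2-5 and without TAC-R replicate 2 for Hand2 in TAC-R against normal; leaving out each array gave -0.037 to 0.43, -0.35 to 0.45 and -0.017 to 0.33. Of all rows, 59, 100 and 21 were called in TAC against normal, TAC-R against TAC and TAC-R against normal. The trend gave 170, 344 and 156, control rows kept in 39, 44 and 10, fits of only the 2 groups 35, 37 and 12, and leaving out 1 array 0 to 35, 4 to 37 and 0 to 12. For the latter 2 comparisons, only rows above the 95th percentile of controls gave 197 and 52, and rows above the median 187 and 68. For TAC-R against normal, ceiling rows left out gave 37 and median centring 54 (main split 14 higher and 7 lower, 11 and 8 after repeated quantile normalization). No label says whether replicate numbers pair the arrays. Differences between replicates 1 and 2 were nearly uncorrelated between groups (0.012, -0.009 and -0.013), which cannot show how the arrays were handled. With replicate numbers as a block 36, 47 and 11 rows passed and no member's call changed. The spread rests on 3 residual degrees of freedom and 5.71 prior ones taken from all rows. Signals near background limit Tbx18, Tbx3 and Hand2.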
